A study of Mus musculus with 30 samples.

Results

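The cadherin and protocadherin genes are the rows of the expression table whose symbol is Cdh followed by a number or begins with Pcdh, and the table held 94 such genes among 24883 rows. They comprised 23 numbered cadherins, 12 solitary protocadherins and 59 clustered protocadherins, the last being the Pcdha (15), Pcdhb (22) and Pcdhg (22) rows that lie together in 3 gene clusters and are described apart. The family was picked because Cdh24 is higher after 10 min of training, so every value of the comparison between VEH-T10 and VEH-HC is given here as a description. Counts of calls in that comparison are printed for completeness, and nothing is read from them.

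Cadherins are calcium-dependent adhesion molecules that sit in the membrane and bind partners on the neighbouring cell through repeated extracellular domains. Classical cadherins of type I and type II bind catenins inside the cell and are found at synaptic junctions, where N-cadherin (Cdh2) is the best known member in hippocampal neurons. Protocadherins lack the catenin-binding tail. The clustered protocadherins are chosen promoter by promoter in single neurons and give each cell its own surface identity, whereas the solitary protocadherins, including the delta group, take part in axon guidance, synapse formation and the turnover of other cadherins.

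RNA was measured in dorsal hippocampus (dCA1, 1 hemisphere per mouse) from wild-type, young adult male C57BL/6J mice, 6 mice and 6 libraries in each of 5 conditions. Mice in VEH-HC received handling only and the in vivo transfection reagent without DNA, and mice in VEH-T10 and VEH-T3 received the same vehicle and were trained in the object location memory task for 10 min (threshold) or 3 min (subthreshold). Y397F-T10 and Y397D-T3 mice carried a plasmid for HA-tagged mouse CREST, a subunit of the neuronal BAF chromatin remodeling complex, under a minimal CaMK2 promoter. The plasmid carried the Y397F or the Y397D point mutation, which the sample labels call phospho-null and phospho-mimetic. The study could not detect phosphorylation of Y397 and treats it as speculation. Infusion preceded training by 3 days and tissue was taken 1 h after training. Per the study's methods, the task includes days of habituation to the chamber before training, which mice given handling only did not have. Chamber exposure and training therefore cannot be told apart in comparisons with VEH-HC. No group received wild-type CREST, so the point mutation cannot be told apart from plasmid expression.

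Markers of neighbouring tissue differed between libraries. The 5 markers of deep cortex (Ctgf, Nxph4, Cplx3, Moxd1, Drd1) summed to 10.5 to 14.1 FPKM in home cage mice. The range was 4.61 to 8.09 for VEH-T10 and 5.41 to 10.3 for Y397F-T10, and it was 4.83 to 17.1 for VEH-T3 and 5.23 to 12.1 for Y397D-T3. The highest library of each trained condition was VEH-T10 replicate 1, Y397F-T10 replicate 1, VEH-T3 replicate 1 and Y397D-T3 replicate 3. Each of these was also the lowest of its condition for the summed markers of astrocytes (419, 391, 393 and 506 FPKM), oligodendrocytes and microglia. All but the last were the highest of their conditions for interneuron markers (734, 846 and 792 FPKM). These libraries thus differed in more than deep cortex markers. The 5 CA1 neuron markers (Wfs1, Fibcd1, Pou3f1, Spink8, Mpped1) were present throughout, with sums between 167 and 257, and dentate gyrus markers were also present, with sums between 64.1 and 176. Relative depth, estimated from values that step by single fragments in 51 rows, lay between 0.850 and 1.27 of the median library. In bulk tissue, fewer cells of a type and less RNA per cell cannot be told apart.

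The promoters of 4 members whose values are followed below are shown because Cdh24 and Pcdh20 stood above VEH-HC, Cdh22 stood below it, and Pcdh8 is the family's textbook activity-regulated gene. Each is the 150 bases before the RefSeq start in GRCm38.p6 (the mm10 assembly), written 5′ to 3′ on the gene's own strand, which is the minus strand for all 4. Capitals mark a GC box (GGGCGG) or a TATA box (TATAAA) on either strand. Cdh24 lies at chr14:54641365-54641514, Pcdh20 at chr14:88471397-88471546, Cdh22 at chr2:165234738-165234887 and Pcdh8 at chr14:79771313-79771462.
Cdh24: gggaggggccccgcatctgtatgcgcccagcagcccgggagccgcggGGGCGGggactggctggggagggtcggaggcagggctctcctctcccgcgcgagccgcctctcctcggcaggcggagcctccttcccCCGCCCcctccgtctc
Pcdh20: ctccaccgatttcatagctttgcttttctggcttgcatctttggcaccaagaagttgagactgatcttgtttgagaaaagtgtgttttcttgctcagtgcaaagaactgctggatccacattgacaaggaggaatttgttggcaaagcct
Cdh22: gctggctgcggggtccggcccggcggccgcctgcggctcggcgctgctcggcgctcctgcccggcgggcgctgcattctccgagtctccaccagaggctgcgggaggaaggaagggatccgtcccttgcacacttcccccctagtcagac
Pcdh8: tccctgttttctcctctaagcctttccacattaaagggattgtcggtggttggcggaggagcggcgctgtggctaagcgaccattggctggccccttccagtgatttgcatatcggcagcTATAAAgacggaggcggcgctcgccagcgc

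The 4 stretches differed in base composition, with 78.0% G and C and 15 CpG in Cdh24, 73.3% and 16 in Cdh22, 58.0% and 11 in Pcdh8, and 43.3% and 1 in Pcdh20. Over 250 bases before the start, 32.7% of 32851 RefSeq promoters held a GC box on either strand, 12.4% held a TATA box, 17.8% held the CRE half-site TGACG and 1.55% held the full CRE, TGACGTCA, which includes the half-site on both strands. None of the 4 promoters held either CRE form in these windows. Only 22 of the 94 members had a promoter in the table used, with 25 promoters, of which 4 held the half-site, and no match says nothing about the factor itself.

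Levels differed widely between members. FPKM, fragments per kilobase of transcript scaled to the mapped total, is corrected for transcript length, so levels can be set side by side between most genes. Single Pcdha and Pcdhg levels are uncertain, because genes of these clusters share exons, as described below. The highest members were Pcdhgc5, with a mean of 49.3 FPKM over 30 libraries, Pcdh1 with 44.7 and Pcdhgc3 with 44.5, followed by Cdh2 with 28.9, Pcdh20 with 26.3 and Pcdh8 with 25.8. In all, 73 members averaged at least 1 FPKM and were tested, and 21 did not. Those below included Cdh1 (E-cadherin, an epithelial cadherin) with 0.302 FPKM, Cdh23 with 0.193 and Pcdh15 with 0.77, both known from the tip links of hair cells, and Cdh16, which was listed at 0 in all 30 libraries.

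**Figure D1:**
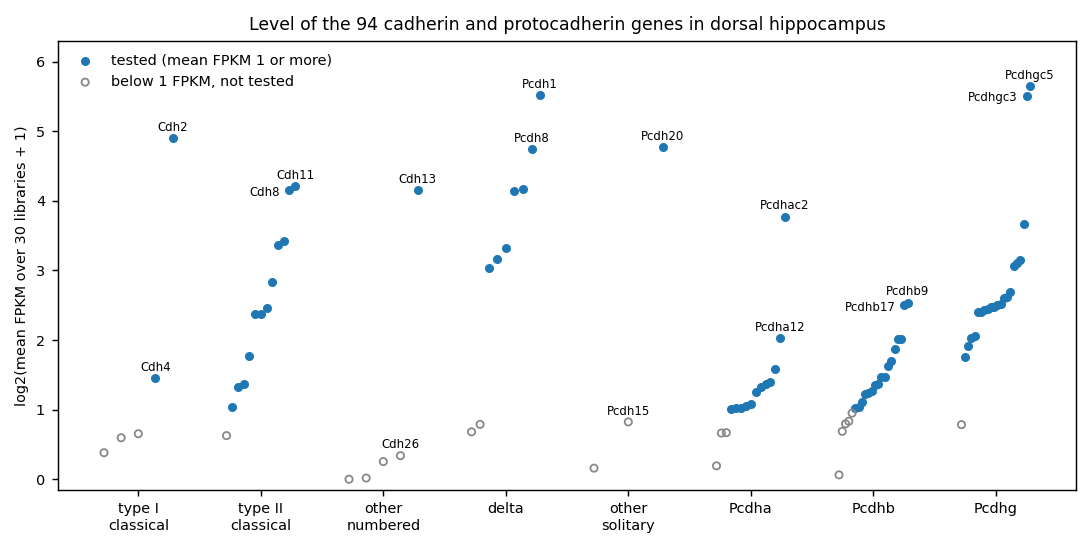
Mean level of each of the 94 genes over 30 libraries, as log2(FPKM + 1) on the vertical axis, by gene group on the horizontal axis, with 1 point per gene; open points were below 1 FPKM and were not tested. Pcdhgc5, Pcdh1 and Pcdhgc3 are the highest, and most Pcdha and Pcdhb genes lie near the bottom of the tested range.

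The summed level of all 94 genes was 557 FPKM ± 14.7 (SD, n = 6) in VEH-HC and between 537 and 554 in the trained conditions. Pcdhg rows made up 35.1% of this sum over the 30 libraries, delta protocadherins 23.7% and type II cadherins 14.5%. Within a condition, the coefficient of variation of a tested member had a median of 13.9%, beside 10.2% over all tested rows. Pcdh20 varied least, with 5.47%, and Cdh22 most, with 27.3%.

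**Figure D2:**
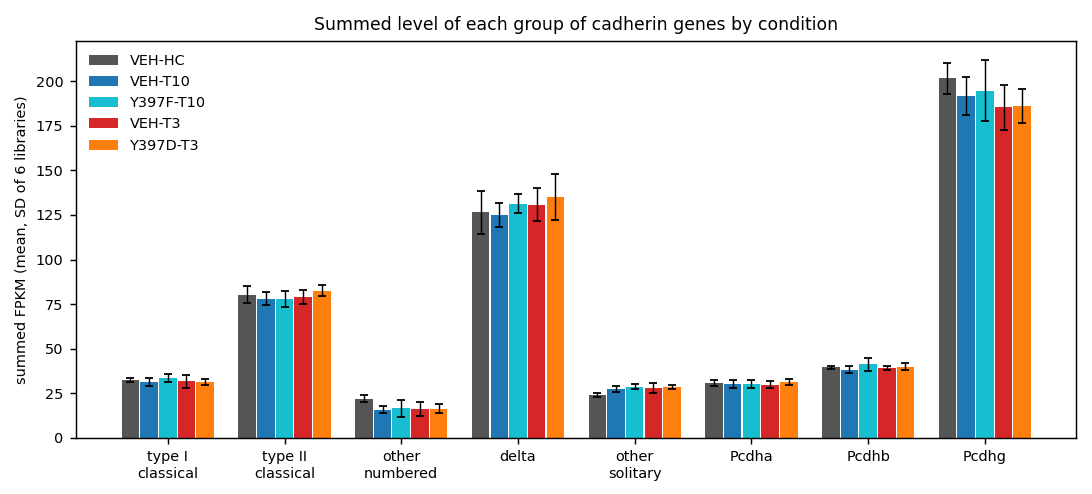
Summed FPKM of each gene group (horizontal axis) by condition, with bars for the mean of 6 libraries and error bars for the SD. The Pcdhg sum is largest in every condition, and the other numbered cadherins, nearly all of it Cdh13, stand at 21.9 in VEH-HC and between 15.6 and 16.5 in the trained conditions.

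Comparisons with the home cage asked which members differ 1 h after training in mice that had also been habituated to the chamber. These comparisons share the same 6 VEH-HC libraries and are not independent of one another. Differences are given on the log2(FPKM + 1) scale, which draws those of low genes toward 0, and a gene was called at an adjusted p under 0.05 from limma. In VEH-T10 against VEH-HC, the comparison behind the choice of the family, 1 of 73 members was called, Cdh24, beside 0.819% of all 13184 rows, and nothing is read from that count. In VEH-T3 against VEH-HC, 6 of 73 members were called, Cdh24 among them, 2 higher and 4 lower, which is 8.22% beside 5.17% of all rows. In Y397F-T10 against VEH-HC, 2 members were called, 1 in each direction, which is 2.74% beside 1.13% of all rows, and in Y397D-T3 against VEH-HC 4 were called, Cdh24 among them, 3 higher and 1 lower, which is 5.48% beside 7.07%. The median member difference was -0.05 for VEH-T10 (-0.03 over all rows) and -0.04 for VEH-T3 (-0.04), while the mutants gave -0.01 for Y397F-T10 (-0.04) and -0.03 for Y397D-T3 (-0.03). Without VEH-HC replicate 4, which stood low for Pcdh1, the counts were 1 for VEH-T10 and 3 for VEH-T3, with 1 for Y397F-T10 and 3 for Y397D-T3. In that order these are 1.37%, 4.11%, 1.37% and 4.11% of members, beside 0.721%, 1.18%, 0.137% and 5.04% of all rows.

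**Figure D3:**
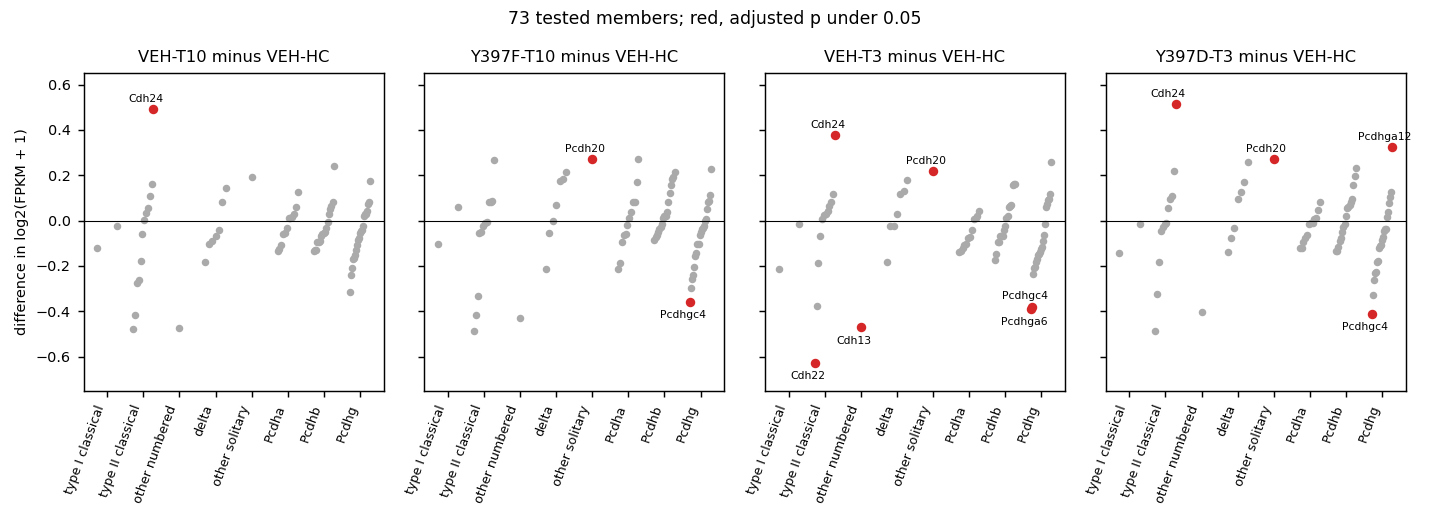
Difference from VEH-HC in log2(FPKM + 1) (vertical axis) of the 73 tested members by gene group (horizontal axis), 1 panel per trained condition; red points have an adjusted p under 0.05. Cdh24 is the highest point for VEH-T10, VEH-T3 and Y397D-T3, and Cdh22 is the lowest point in all 4 panels.

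Cdh24 is a type II classical cadherin that binds catenins, and its gene lies on the minus strand of chr14:54631231-54641364 with no other annotated gene over it. Its FPKM (lowest, median and highest of 6) was 3.98, 4.54 and 5.19 in VEH-HC. After 10 min of training with vehicle it was 5.42, 6.75 and 8.28, and after 3 min 5.49, 5.98 and 7.89. Every vehicle-treated trained mouse was above every home cage mouse. In Y397D-T3 it was 5.91, 6.94 and 8.49, again above all home cage values, whereas Y397F-T10 gave 3.78, 6.06 and 6.66, and replicate 2 of that condition lay below the home cage range. Differences from VEH-HC were largest for Y397D-T3, at 0.51 ± 0.10 (SE), and VEH-T10, at 0.49 ± 0.10, followed by VEH-T3 at 0.38 ± 0.10 and Y397F-T10 at 0.27 ± 0.10. Y397F-T10 against VEH-T10 gave -0.22 ± 0.10. These all rest on libraries that led to the choice of the gene and stand as descriptions. The comparison independent of that choice, Y397D-T3 against VEH-T3, gave 0.14 ± 0.10 with an adjusted p of 0.76, so a difference between these groups was not detected.

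**Figure D4:**
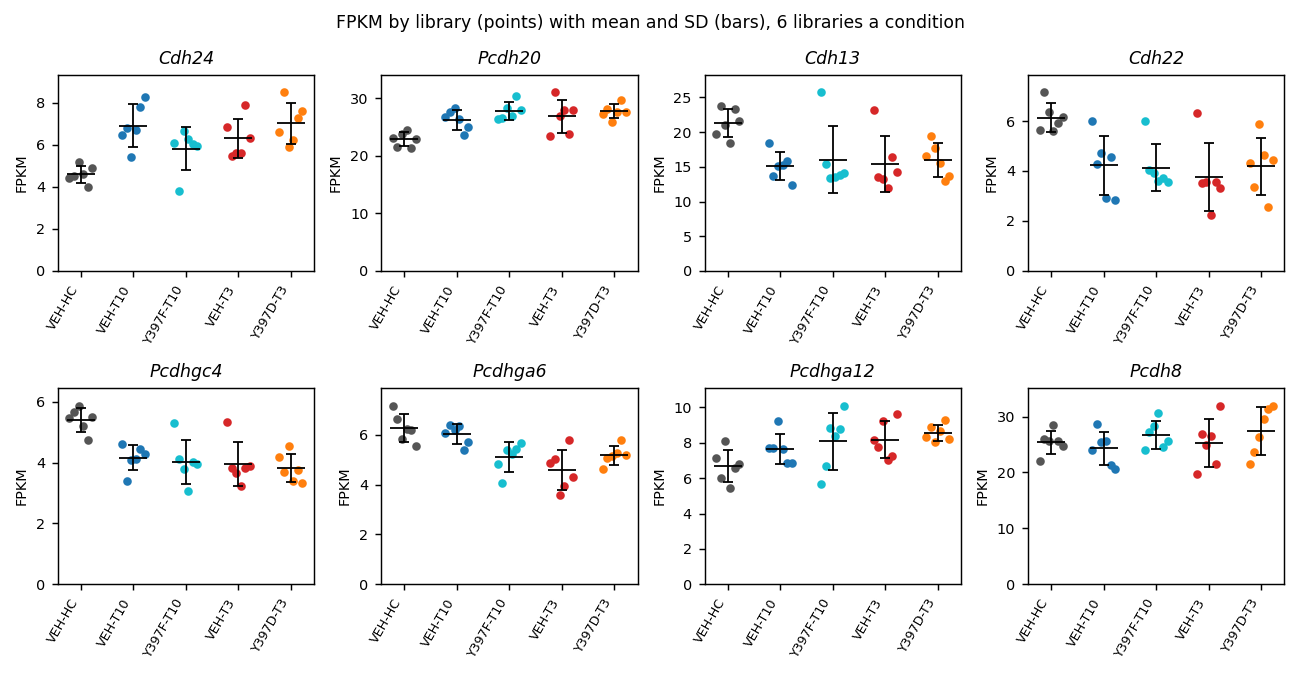
FPKM (vertical axis, from 0) in each library for 8 members, by condition on the horizontal axis, with the mean and SD of 6 libraries drawn as a bar with whiskers. Cdh24 and Pcdh20 lie higher in most trained libraries than in VEH-HC, Cdh13, Cdh22 and Pcdhgc4 lie lower in most of them with 1 high library in several conditions, and the Pcdh8 conditions overlap.

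Pcdh20, a solitary protocadherin, had the smallest spread of the tested members. Its FPKM was 21.3, 23.0 and 24.4 in the home cage. Vehicle mice had 23.5, 26.6 and 28.3 after 10 min of training and 23.5, 27.4 and 31.0 after 3 min. Both CREST mutant conditions were above the whole home cage range, with 26.3, 27.5 and 30.4 in Y397F-T10 and 25.9, 27.6 and 29.8 in Y397D-T3. It rose by 0.27 ± 0.06 (SE) in Y397F-T10 (adjusted p = 0.0265), by 0.27 ± 0.06 in Y397D-T3 (adjusted p = 0.00455) and by 0.22 ± 0.06 in VEH-T3 (adjusted p = 0.0239). The VEH-T3 call was lost with only the 12 libraries compared (adjusted p = 0.117) and after a length and GC correction (adjusted p = 0.0892). In VEH-T10 the difference was 0.19, with all 6 mice above the home cage median. The gene lies at chr14:88464743-88471396 on the minus strand.

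Cdh22 and Cdh13 were below the home cage in most trained mice, and both were called in VEH-T3. Cdh22 is a type II cadherin, and its FPKM was 5.59, 6.04 and 7.15 in VEH-HC against 2.23, 3.54 and 6.33 in VEH-T3, a difference of -0.63 ± 0.16 (SE, adjusted p = 0.0274). Its median was 4.43 for VEH-T10, 3.82 for Y397F-T10 (adjusted p = 0.128) and 4.38 for Y397D-T3 (adjusted p = 0.0675). Cdh13, also called T-cadherin, is anchored by a lipid and has no catenin-binding tail. Its FPKM was 18.4, 21.4 and 23.8 in VEH-HC against 11.9, 13.9 and 23.2 in VEH-T3, a difference of -0.47 ± 0.14 (adjusted p = 0.0461). VEH-T10 mice had 12.4, 15.2 and 18.4, all below the home cage. Y397F-T10 mice had 13.4, 13.9 and 25.7 (adjusted p = 0.116), and Y397D-T3 mice had 12.9, 16.04 and 19.5 (adjusted p = 0.0732).

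The library highest for deep cortex markers was also the highest of its condition for Cdh22 in all 4 trained conditions, and for Cdh13 in all but Y397D-T3, where replicate 3 had 17.65 FPKM of Cdh13. VEH-T3 replicate 1 had 7.41 FPKM of Ctgf and 6.15 of Slc17a6, a glutamate transporter of thalamic neurons, and it had 23.2 of Cdh13 and 6.33 of Cdh22. Its sum over the 6 thalamus markers, 18.9 FPKM, was nevertheless the lowest of its condition, as were its Prkcd (3.55) and Zic1 (1.97). Y397F-T10 replicate 1 had 25.7 of Cdh13 and 5.98 of Cdh22. Ctgf itself had FPKM of 3.67, 4.50 and 6.09 in VEH-HC against medians between 1.90 and 2.52 in the trained conditions, and Slc17a6 had a median of 4.48 in VEH-HC against 1.45 to 1.92. Slc17a6 fell by 1.12 ± 0.25 (adjusted p = 0.0313) in Y397F-T10 and by 0.95 ± 0.25 (adjusted p = 0.0199) in Y397D-T3. Of 4 tested deep cortex markers, 2 fell in Y397D-T3 (Ctgf and Drd1) and none in VEH-T3 or Y397F-T10. Of 6 thalamus markers, summing to between 27.6 and 46.9 FPKM in VEH-HC and between 11.5 and 62.7 in the trained libraries, 2 fell in Y397D-T3 (Slc17a6 and Tcf7l2) and only Slc17a6 in Y397F-T10. In VEH-T10 the differences from the home cage, given without a test, were -1.08 for Slc17a6 and -0.92 for Ctgf. The part of tissue make-up in the Cdh13 and Cdh22 results was not tested. Without VEH-T3 replicate 1, 10 members were called in VEH-T3 against VEH-HC, 2 higher and 8 lower, and all 6 of the first calls were among them. This is 13.7% of members beside 9.75% of all rows, whose share also rose. The added lower calls were Cdh4, Cdh18, Cdh20 and Pcdh10, named after their values were seen. Without Y397F-T10 replicate 1, Cdh13 was lower there by 0.57 (adjusted p = 0.0174), and 4 members were called in place of 2, which is 5.48% beside 3.02% of all rows. Without VEH-HC replicate 4, the VEH-T3 calls of Cdh13 and Cdh22 were lost, with adjusted p of 0.0647 and 0.0531. Both were also lost with libraries centred on their medians (adjusted p of 0.099 and 0.0539) and with only the 12 libraries compared (0.0986 and 0.083). After the length and GC correction the adjusted p values were 0.105 and 0.0886. The Cdh13 call was lost with no filter on FPKM as well (adjusted p = 0.0617).

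**Figure D5:**
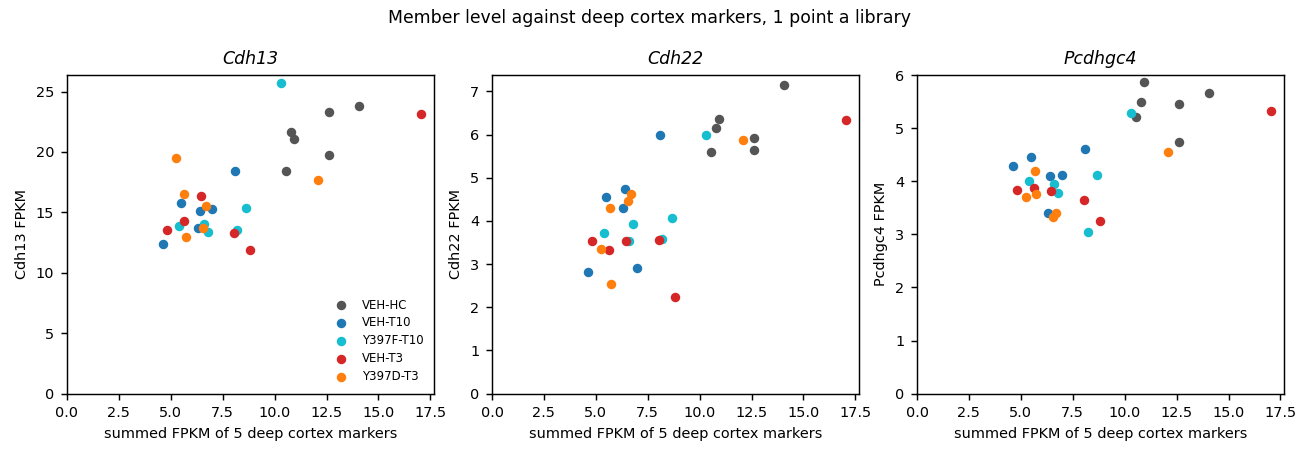
FPKM of Cdh13, Cdh22 and Pcdhgc4 (vertical axes) against the summed FPKM of 5 deep cortex markers (horizontal axis), 1 point per library, coloured by condition. The home cage libraries lie at 10.5 or more on the horizontal axis, which only VEH-T3 replicate 1 and Y397D-T3 replicate 3 reach among the trained mice; in their conditions these are the highest for Cdh22 and Pcdhgc4, and the former also for Cdh13.

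Other classical cadherins showed no call in any comparison. N-cadherin, Cdh2, gave 27.8, 28.7 and 30.2 FPKM in VEH-HC, and its mean in the trained conditions lay between 28.4 and 30.1. Its difference from VEH-HC was between -0.01 and 0.06, with an SE of 0.06, in the 3 trained conditions outside the comparison that chose the family. Cdh4 (R-cadherin) averaged 1.95 in VEH-HC and 1.56 in VEH-T3 (-0.22 ± 0.08, adjusted p = 0.107). Among type II cadherins, Cdh11 averaged 16.98 in the home cage and between 17.4 and 18.1 after training, and Cdh8 averaged 16.98 in the home cage and between 14.9 (VEH-T10) and 18.4 (Y397D-T3) after training. Cdh5 (VE-cadherin, the endothelial member) averaged 4.21 over all libraries. Of 12 tested type II cadherins, 2 were called in VEH-T3, Cdh24 and Cdh22, in opposite directions, which is 16.7% beside 5.17% of all rows. Cdh24 led to the choice of the family, so nothing is read from that count. Cdh26 stayed under 1 FPKM in every library.

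Cdh3 (P-cadherin), below the level for testing, was highest in the libraries with most choroid plexus marker. It reached 2.73 FPKM in Y397F-T10 replicate 2, which had 10072 FPKM of Ttr, the transthyretin of the choroid plexus, and 1.96 in VEH-T3 replicate 4, which had 12451. It was listed at 0 in 6 libraries. In VEH-HC the lowest, median and highest values of Cdh3 were 0.145, 0.537 and 1.79, and in Y397D-T3 they were 0, 0.0177 and 0.517. The part of choroid plexus tissue was not tested.

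The delta protocadherins, 7 of 9 tested, had no called member in any comparison. Pcdh8 (arcadlin), which drives internalisation of N-cadherin at active synapses and is known to be induced by neuronal activity, gave 22.05, 25.6 and 28.5 FPKM in the home cage and 20.7, 24.8 and 28.7 after 10 min of training with vehicle. Its differences from VEH-HC were -0.02 ± 0.10 in VEH-T3 (adjusted p = 0.933), 0.07 ± 0.10 in Y397F-T10 (0.777) and 0.09 ± 0.10 in Y397D-T3 (0.59), all adjusted p values, and the conditions overlapped. An antisense gene, Gm9748, overlaps it, and the strand setting of the libraries is not given in the sources used here, so reads of both cannot be told apart. Pcdh1 gave 26.9, 43.1 and 44.9 in VEH-HC and 37.6, 48.6 and 54.1 in Y397D-T3 (0.26 ± 0.09, adjusted p = 0.0932). The low home cage value came from replicate 4. Outside the delta group Pcdh15, below the level for testing, averaged 0.865 in VEH-HC and between 0.688 and 0.836 after training.

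Pcdha and Pcdhg genes share constant exons within their cluster: on chromosome 18 each Pcdhg gene overlaps 21 other members in the annotation and each matched Pcdha gene overlaps 12. How the authors' quantification divided fragments of shared exons between isoforms affects their values, so single Pcdha and Pcdhg levels are uncertain. The summed Pcdhg level was 202 FPKM ± 8.61 (SD, n = 6) in home cage mice. It was 192 ± 10.6 for VEH-T10 and 194.9 ± 17.3 for Y397F-T10, and 185 ± 12.7 for VEH-T3 and 186 ± 9.65 for Y397D-T3. The summed Pcdha level lay between 29.8 and 31.2 and the summed Pcdhb level between 38.2 and 41.1 over the 5 conditions. The log2 ratio of a trained mean to the home cage mean ran from -0.12 (Pcdhg in VEH-T3) to 0.05 (Pcdhb in Y397F-T10), and its sign for Pcdha in VEH-T10 and Y397F-T10 and for Pcdhb in VEH-T3 turned when libraries were centred on their medians.

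C-type isoforms, expressed by most neurons without the promoter choice of the others, made up 51.8% ± 0.992 of the Pcdhg sum in VEH-HC and between 49.8% and 51.9% after training. Pcdhac1 and Pcdhac2 made up 45.8% ± 2.24 of the Pcdha sum in VEH-HC and between 45.7% and 47.8% after training. Pcdhac2 had a mean of 12.7 FPKM and Pcdha12 of 3.08. In the Pcdhb cluster, whose genes have single exons, Pcdhb9 averaged 4.81 and Pcdhb17 4.64, and none of 17 tested genes was called in any comparison.

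Pcdhgc4, like Pcdh20, was called in 3 comparisons with the home cage, but as lower. This isoform is known for its role in neuronal survival. Its FPKM was 4.74, 5.48 and 5.87 in the home cage and 3.41, 4.199 and 4.61 after 10 min of training with vehicle. VEH-T3 mice had 3.25, 3.82 and 5.32, Y397F-T10 mice 3.05, 3.98 and 5.29, and Y397D-T3 mice 3.32, 3.73 and 4.56. All VEH-T10 and Y397D-T3 mice were below all home cage mice. It fell by 0.38 ± 0.09 (SE) in VEH-T3 (adjusted p = 0.0175), by 0.36 ± 0.09 in Y397F-T10 (adjusted p = 0.0434) and by 0.41 ± 0.09 in Y397D-T3 (adjusted p = 0.00636). The highest trained values came from VEH-T3 replicate 1 and Y397F-T10 replicate 1. In these libraries the sums of deep cortex and interneuron markers were high, and those of astrocyte, oligodendrocyte and microglia markers were low. The part of tissue make-up was not tested. The Y397F-T10 call was lost without VEH-HC replicate 4 (adjusted p = 0.0868) and under 4 other settings, with adjusted p up to 0.134. The VEH-T3 call was lost with centred libraries (adjusted p = 0.0552), with only the 12 libraries compared (0.083) and after the length and GC correction (0.0802), all adjusted p values.

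Pcdhga6 and Pcdhga12 were each called once. Pcdhga6 gave 5.56, 6.22 and 7.17 FPKM in the home cage and 5.41, 6.15 and 6.40 for VEH-T10, while VEH-T3 gave 3.58, 4.58 and 5.78, a difference from VEH-HC of -0.39 ± 0.08 (SE, adjusted p = 0.00927). That call was lost with only the 12 libraries compared (adjusted p = 0.083). VEH-T10 was above VEH-T3 by 0.34 ± 0.08 with an adjusted p of 0.1, which missed the threshold, with all 6 VEH-T10 mice above the VEH-T3 median. The Pcdhga6 share of the Pcdhg sum was 3.11% ± 0.253 in the home cage, 3.16% ± 0.34 for VEH-T10 and 2.47% ± 0.341 for VEH-T3, with both mutants between, at 2.63% ± 0.329 for Y397F-T10 and 2.78% ± 0.12 for Y397D-T3. Pcdhga12 moved the other way: it gave 5.44, 6.71 and 8.08 in VEH-HC and 8.05, 8.51 and 9.27 in Y397D-T3, a rise of 0.32 ± 0.10 (adjusted p = 0.0419). This call was lost without VEH-HC replicate 4 (adjusted p = 0.0996) and with no filter on FPKM (adjusted p = 0.0565). The highest Pcdhg genes, Pcdhgc5 and Pcdhgc3, averaged 51.5 and 47.6 in VEH-HC and 48.4 and 40.6 in Y397D-T3, with no call. Within the Pcdhg group, 15 of 21 tested genes had a negative difference from the home cage in each of VEH-T3, Y397F-T10 and Y397D-T3, and 14 in VEH-T10. In that order their median difference was -0.13, -0.05, -0.09 and -0.06, beside -0.04, -0.04, -0.03 and -0.03 over all rows. The comparisons share the VEH-HC libraries and the genes share exons, so these counts are not independent and nothing is read from their repetition.

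Comparisons within a training period addressed the CREST point mutants. In Y397F-T10 against VEH-T10, limma called none of the 73 members and 0.0% of all rows, and 8 members had an unadjusted p under 0.05, 5 higher and 3 lower, beside 498 of 13184 rows (3.78%). The smallest p belonged to Pcdhb16, with 1.03, 1.18 and 1.31 FPKM in VEH-T10 and 1.23, 1.55 and 1.74 in Y397F-T10 (0.22 ± 0.08, adjusted p = 1). In Y397D-T3 against VEH-T3, again 0 members were called, beside 0.00758% of all rows, and 2 had an unadjusted p under 0.05, Pcdhgb2 and Cdh9, the latter named after its values were seen, which is 2.74% beside 7.87% of all rows. Pcdhgb2 gave 3.29, 3.95 and 4.91 with vehicle and 4.52, 4.97 and 5.14 with Y397D (0.24 ± 0.08, adjusted p = 0.52). Between the vehicle groups, VEH-T10 against VEH-T3, 0 members were called beside 0.0455% of all rows, and 7 had an unadjusted p under 0.05, which is 9.59% beside 8.15% of all rows.

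Genes that work with cadherins were followed in 4 lists, whose counts stand beside 7.07% of all rows called in Y397D-T3 and 5.17% in VEH-T3. Of 18 tested catenins and adherens junction partners, 3 rose and 1 fell in Y397D-T3 against VEH-HC and 1 rose in VEH-T3. Pkp4, a catenin relative named after its values were seen, rose in both, by 0.16 ± 0.05 (adjusted p = 0.0452) and 0.18 ± 0.05 (adjusted p = 0.0415). Magi2, a synaptic scaffold that binds catenins, gave 15.01, 16.4 and 17.7 FPKM in VEH-HC and 18.2, 19.6 and 19.7 in Y397D-T3, without overlap (0.22 ± 0.05, adjusted p = 0.00747). Rapgef2, which activates Rap at junctions, rose by 0.19 ± 0.06 (adjusted p = 0.0391). That call was lost without VEH-HC replicate 4 (0.0794) and without Y397D-T3 replicate 3 (0.0688), both adjusted p values. It was also lost with libraries centred on their medians (adjusted p = 0.0617) and after the length and GC correction (adjusted p = 0.0717). Cdc42, the small GTPase that shapes actin at junctions, fell by 0.20 ± 0.04 (adjusted p = 0.00577).

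Cadherin superfamily genes outside the numbered and protocadherin series, 12 of 18 tested, had 3 members higher in Y397D-T3, where 7.07% of all rows were called in either direction. Celsr3, a planar polarity cadherin of axon tracts, gave 5.35, 7.45 and 8.25 FPKM in VEH-HC and 8.05, 10.9 and 12.1 in Y397D-T3 (0.52 ± 0.12, adjusted p = 0.00872). Clstn2, a synaptic calsyntenin, gave 26.9, 28.6 and 31.5 against 32.3, 35.5 and 42.1, without overlap (0.31 ± 0.06, adjusted p = 0.00267). Fat3, a giant cadherin of dendrites, rose by 0.33 ± 0.08 in VEH-T3 (adjusted p = 0.0155) and by 0.29 ± 0.08 in Y397D-T3 (adjusted p = 0.0185). After removing a trend with gene length and GC content, the Fat3 differences were 0.14 in both conditions and neither was called. The VEH-T3 call was also lost without VEH-HC replicate 4 (adjusted p = 0.0504) and with only the 12 libraries compared (adjusted p = 0.0874). In VEH-T3 the 1 riser was Fat3 and the 1 gene that fell was Clstn3, another calsyntenin, named after its values were seen (-0.27 ± 0.08, adjusted p = 0.0451).

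For cadherin cleavage, 1 of 8 tested genes fell in Y397D-T3: Ncstn, a gamma-secretase subunit, gave 24.7, 25.8 and 26.7 FPKM in VEH-HC and 19.3, 21.3 and 23.3 in Y397D-T3 (-0.27 ± 0.07, adjusted p = 0.021). Among 12 tested genes for promoter choice and silencing of the clustered protocadherins, Rad21, a cohesin subunit, fell in Y397D-T3 (-0.16 ± 0.04, adjusted p = 0.00906), from 32.6, 34.0 and 36.2 to 27.9, 30.9 and 32.0. Nipbl, which loads cohesin, rose in VEH-T3 (0.26 ± 0.07, adjusted p = 0.0247), from 3.57, 4.73 and 4.88 to 5.05, 5.61 and 6.31. The Nipbl call was lost without VEH-HC replicate 4 (adjusted p = 0.0726) and with only the 12 libraries compared (adjusted p = 0.111). The Rad21 and Nipbl calls were also lost once the trend with length and GC content was removed, with adjusted p of 0.0853 and 0.13. No gene of these lists was called in Y397F-T10 against VEH-HC, or in the comparisons within a training period.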

How the data were processed

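RNA-seq libraries from 30 mice, 6 per condition, were analysed from the table that the authors deposited. Per the labels and the study's methods, RNA with an integrity number of at least 7 was sequenced as paired 150-base reads on NovaSeq and HiSeq instruments, with no library assigned to either. The authors aligned reads to mm10 with TopHat2 2.1.1 and computed FPKM with Cufflinks 2.2.1 (versions from the submitters' processing notes). Absolute depth is unknown, so precision is given by the spread between mice.

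The 13184 rows with a mean of at least 1 FPKM were fitted on the log2(FPKM + 1) scale with limma 3.58.1 (R 4.3.3), each condition having its own coefficient, with a variance trend and Benjamini-Hochberg adjustment within each of 7 comparisons. Tested on simulated data for VEH-T3 against VEH-HC over 13184 rows, the fit recovered 80 of 100 changes of 0.5 and 91 of 100 changes of 1 on the log2 scale, with 6 false calls. The simulated noise was independent between rows, without the shifts shared within a library that the markers show. Changes smaller than 0.5 were not simulated. These rates check the fit and do not give its error rates on the real libraries. The study's own Cyber-T test was not used here. Gene models were taken from GENCODE (92 of 94 members matched by symbol), and promoters from RefSeq. Tables were made in Python 3.11.15.

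The members, gene lists and tests were chosen with earlier results of these data known. Named are Cdh24 and Pcdh8, every member called in any comparison, the 2 highest members of each group or cluster, the member with the smallest p of each comparison, and up to 3 called genes of each partner list. Marker lists also covered choroid plexus, endothelium, meningeal fibroblasts, astrocytes, oligodendrocytes, interneurons and microglia. In VEH-T3 against VEH-HC 1 endothelial marker rose, in Y397D-T3 1 fibroblast marker fell, and in each of these conditions 1 CA1 marker rose. No marker of the other lists was called. Alternatives were a pseudocount of 0.1, no filter, centred libraries, unadjusted p values, only the 12 libraries compared, a replicate block, summed rows of a symbol, a length and GC correction, and leaving out single libraries. The replicate numbers did not pair the mice.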

Additional observations from a re-analysis of the deposited data

Results flagged for a closer look

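For the 32 named genes, each condition of 6 was examined for a library far from the rest, by the gap to its nearest neighbour over the whole range. In 15 of 160 gene and condition pairs that ratio was above Dixon's 95% critical value, and chance alone gives about 1 in 20. Y397F-T10 replicate 1 was high for Cdh13, with 25.7 FPKM against 13.4 to 15.4 in the other mice, for Cdh22, with 5.98 against 3.54 to 4.06, and for Cdh4, with 2.32 against 1.52 to 1.81. VEH-T3 replicate 1 was high for Cdh22, with 6.33 against 2.23 to 3.55, and for Pcdhgc4, with 5.32 against 3.25 to 3.88. Y397F-T10 replicate 2 was low for Cdh24, with 3.78 against 5.94 to 6.66, and for Rapgef2, with 24.4 against 28.3 to 29.8. VEH-HC replicate 4 was low for Pcdh1, with 26.9 against 39.9 to 44.9, for Pcdh15, with 0.598 against 0.861 to 0.965, and for Nipbl, with 3.57 against 4.56 to 4.88.

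The remaining values were single. VEH-HC replicate 1 had 0.144 FPKM of Cdh26 and VEH-HC replicate 5 had 5.28 of Pcdhb17. VEH-T10 replicate 3 had 9.22 of Pcdhga12, VEH-T10 replicate 5 had 26.1 of Ncstn, and Y397D-T3 replicate 1 had 4.37 of Nipbl.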

How the results depend on the processing

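No called difference changed sign under any alternative tried. Among member calls other than those of Cdh24, which led to the choice of the family, Pcdh20 in Y397F-T10 and Y397D-T3 and Pcdhgc4 in Y397D-T3 were kept under all of them. Members called against VEH-HC numbered 1 (VEH-T10), 6 (VEH-T3), 2 (Y397F-T10) and 4 (Y397D-T3). At an unadjusted p under 0.05 they were 12, 13, 16 and 14 (16.4%, 17.8%, 21.9% and 19.2% of members, beside 14.9%, 21.6%, 16.9% and 24.9% of all rows), and in comparisons without home cage mice they were 8 (Y397F-T10 against its vehicle group), 2 (Y397D-T3 likewise) and 7 (between the vehicle groups), where limma called 0. With only the 12 libraries compared, limma called 3 in VEH-T10 (2.43% of all rows), 9 in Y397D-T3 (1845 of 13184 rows) and 0 in VEH-T3 (0.0% of all rows). In that VEH-T3 fit 14 members had an unadjusted p under 0.05. No share of all rows was computed for it, so nothing is read from that count. Centring libraries on their medians left 2 in VEH-T3, 1 higher and 1 lower (2.59% of all rows), and 1 in Y397F-T10 (0.319%). No filter on FPKM left 1 in Y397F-T10 (0.678% of all rows). Removing a trend with length and GC content, an alternative chosen after seeing the data, left 2 in VEH-T3 (1.67% of all rows) and 1 in Y397F-T10 (0.667%). Leaving out VEH-HC replicate 4, or the library of a condition highest for deep cortex markers (also chosen after seeing the data), gave 1 in VEH-T10, 3 to 10 in VEH-T3, 1 to 4 in Y397F-T10 and 3 to 6 in Y397D-T3. The shares of all rows were 0.721% and 1.36% in VEH-T10, 1.18% and 9.75% in VEH-T3, 0.137% and 3.02% in Y397F-T10, and 5.04% and 6.62% in Y397D-T3. The cause of these changes was not tested.

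The replicate numbers belong to different mice, and same-numbered libraries had correlations of their deviations from -0.496 to 0.521, with at most 3 of 6 libraries closest to their own number. A replicate block gave 3 calls in VEH-T10, 7 in Y397D-T3, 6 in VEH-T3 and 3 in Y397F-T10. The shares of all rows were 1.23%, 7.88%, 5.63% and 1.33% in that order. Of the 21 members below 1 FPKM, 20 were fitted without the filter and 0 were called. The shares of all rows against VEH-HC were then 0.574% (VEH-T10), 2.8% (VEH-T3), 0.678% (Y397F-T10) and 4.49% (Y397D-T3). In the other comparisons they were at most 0.0328%. The log2(FPKM + 1) scale draws differences of such low genes toward 0, and the part of depth was not tested.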
